A study of Zea mays with 12 samples.

Results

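The change of the maternal transfer zone (MATZ) of the maize kernel between 8 and 20 days after pollination (DAP) is described here. It is the difference between 2 libraries at 20 DAP and 2 at 8 DAP, 4 of the 12 libraries of the study. All groups are wild-type kernels of the inbred line W22, taken from ears of plants grown in the field, and their tissues were parted by microdissection of frozen kernels. The compared groups are MATZ at 8 DAP and MATZ at 20 DAP. MATZ at 14 DAP served for timing. The facing basal endosperm transfer layer (BETL), also at 8, 14 and 20 DAP with 2 libraries each, served to test whether a change differed between the tissues. All 12 libraries entered the estimate of the spread. Whether the replicate libraries stem from different plants is not labelled, so p-values measure only the spread between these libraries, which may be technical.

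The endosperm has no vascular connection to the mother plant. Sucrose and amino acids leave the phloem in the maternal tissue at the base of the kernel, move through it towards the endosperm, and are taken up across the wall-ingrowth cells of the BETL. A cell wall invertase at this boundary splits sucrose and keeps the gradient that drives unloading. The maternal cells next to the endosperm die and are compressed while the kernel fills.

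Levels are in FPKM (fragments per kilobase of transcript, relative to all mapped fragments), as deposited, and a change is the mean log2(FPKM + 1) at 20 DAP minus that at 8 DAP, which understates the change of low genes. Summed FPKM was 749191 and 833936 in the MATZ libraries at 8 DAP, and 817222 and 806511 at 20 DAP. The numbers of reads are not stated. Low values fall on repeated steps that would correspond to 162181 to 346737 fragments at 8 DAP and 94189 to 257040 at 20 DAP if 1 step is 1 fragment, which is an inference. Of genes with at least 10 FPKM in 1 library, 8.37% at 8 DAP and 10.8% at 20 DAP were listed at 0 in the other library of the group, so a 0 is written here as listed at 0.

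The tissue label was compared with marker genes first. The 33 MADS-box genes of the list, floral and ovule regulators, summed to 2356 and 2411 FPKM (8 DAP), then 4577 and 4529 (20 DAP) in MATZ. These sums were 288% and 993% of those in BETL. Pip2b, a plasma membrane aquaporin gene, had 5913 and 5703 FPKM (8 DAP), then 8053 and 8064 (20 DAP) in MATZ, against 2520.2 and 2442 FPKM (8 DAP), then 628 and 542 (20 DAP) in BETL. The 13 transfer layer genes of the endosperm (betl, bap, meg and tcrr genes) summed to 3.59% of their BETL level in MATZ at 8 DAP and to 12.3% at 20 DAP. Both tissue labels were matched in direction by these genes at both ages. The genes were chosen with earlier results of these data known, so the match is a description and no independent check of the labels. Transfer layer transcripts were present in all 4 MATZ libraries. In bulk tissue, a change in the number of cells of a type and a change in RNA per cell cannot be told apart.

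From 8 to 20 DAP, 1759 of 24213 tested genes were called at an adjusted p under 0.05, 7.26% of those tested. Of these, 1062 rose (4.39%) and 697 fell (2.88%). Counts of gene lists below are to be read against these shares and against the median change of all tested genes, 0.33. Of the called genes 833 raised and 505 lowered ones changed by at least 4-fold on the log2 scale used. The groups did not overlap for 44.5% of all tested genes, so a gap between 2 and 2 libraries is common and is not used as evidence below. In 297 of the raised genes both libraries at 8 DAP were listed at 0, and in 481 of the lowered genes both at 20 DAP were. Genes above 0 in MATZ numbered 20487 and 17896 at 8 DAP, then 18682 and 16079 at 20 DAP. The inferred fragments also ranged lower at 20 DAP, and the part of depth in falls to 0 was not tested. All 4 libraries were above 0 for 621 raised and 177 lowered genes. The counts fell when either MATZ 20 DAP library was left out, which leaves 1 library in that group. Such a fit has less precision, so a call lost in it does not show that the library left out made the call.

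The balance of directions depended on the scaling of the libraries. The median change of all tested genes was 0.33 with the deposited values, 0.00 after median-of-ratios scaling and 0.07 after quantile normalization. Called genes split into 540 raised and 926 lowered with the first rescaling, and into 569 raised and 811 lowered with the second. Of the raised genes 472, and of the lowered genes 600, were called in the same direction under both. Calls of named genes that were lost on rescaling are given as such below. With median-of-ratios scaling, the medians of the cytokinin (-0.09), wall loosening (-0.27) and ribosomal protein (-0.18) lists turned from above to below 0.

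**Figure D1:**
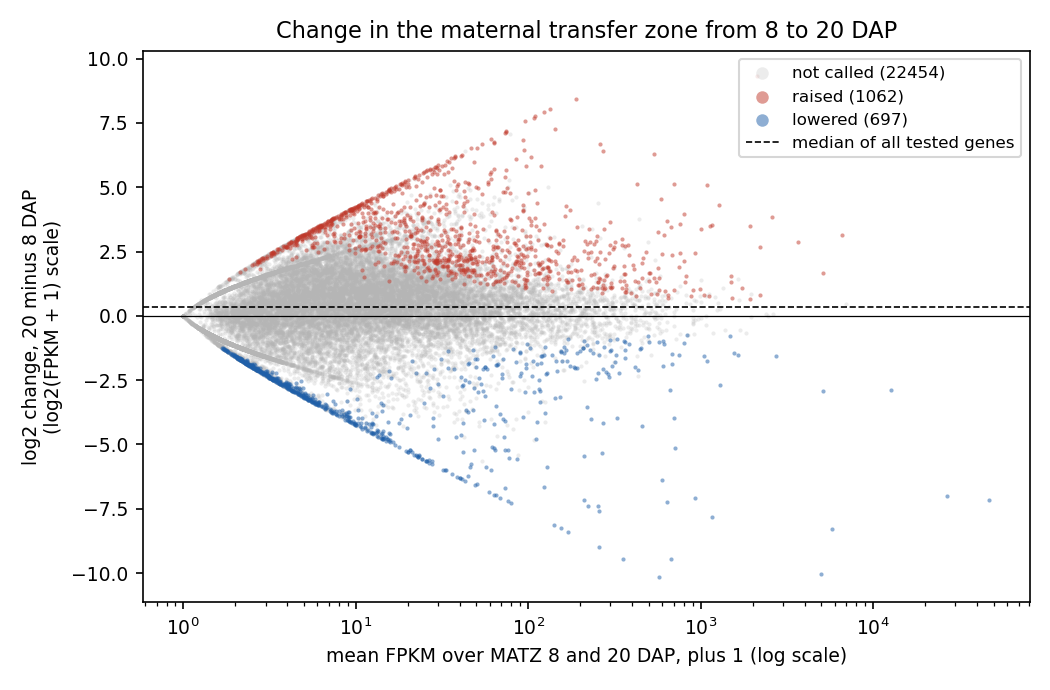
Each point is 1 of 24213 tested genes, with the mean FPKM over the MATZ 8 and 20 DAP groups plus 1 on a log axis and the log2 change (20 minus 8 DAP) on the vertical axis. The 1062 raised genes are red, the 697 lowered genes are blue, and the dashed line is the median change of all tested genes, 0.33. Calls near the edges of the fan are genes listed at 0 at 1 of the ages.

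The most abundant transcripts of the young maternal zone fell steeply by 20 DAP. The 10 highest genes took 26.3% and 28.0% of the summed FPKM at 8 DAP, and the 10 highest took 6.95% and 6.94% at 20 DAP. GRMZM2G166141 (chromosome 10, 101520598 to 101521474 in the deposited coordinates, whose build is not given) had 79394 and 108239 FPKM (8 DAP), 806 and 1057 (14 DAP), then 747 and 561 (20 DAP). It was 143-fold lower at the end (log2 change -7.16 ± 0.22 SE, adjusted p = 2.3e-07). LOC100193620 (GRMZM2G150091, chromosome 7, 13208679 to 13209853) had 48970.1 and 58056 FPKM (8 DAP), 5611 and 5326 (14 DAP), then 464 and 380.1 (20 DAP). LOC100304374 (GRMZM2G039538) was at 12666 and 10425 FPKM (8 DAP), then 37.6 and 33.6 (20 DAP). LOC100284997 (GRMZM2G136364) was at 8827 and 11039.8 FPKM (8 DAP), then 8.47 and 8.56 (20 DAP). None of these 4 has a descriptive name, and their roles are not given here. At 14 DAP all 4 had already lost most of their level, LOC100193620 the least of them.

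A second pattern of abundant genes fell more slowly. LOC103643513 (GRMZM2G067315, chromosome 1, 235909167 to 235910673) had 22579 and 21876 FPKM (8 DAP), 11746 and 11734 (14 DAP), then 2937 and 3142 (20 DAP) (log2 change -2.87 ± 0.14 SE, adjusted p = 4.65e-06). In BETL the same gene had 805 and 765 FPKM (8 DAP), then 95.1 and 82.5 (20 DAP), far under its MATZ level at both ages. Grp1, a glycine-rich protein gene by its name, had 9196 and 8979.7 FPKM (8 DAP), 2832 and 2831 (14 DAP), then 1236 and 1156 (20 DAP) (log2 change -2.93 ± 0.11 SE, adjusted p = 1.05e-06), and was singled out after its values were seen. These falls were called under both rescalings and without each of the 12 libraries in turn.

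Among the 5 raised genes with the largest difference in mean FPKM, 3 had more FPKM at 20 DAP in MATZ than in BETL. LOC100275455 (GRMZM2G044174, chromosome 7, 3008408 to 3009367) had 885 and 890.4 FPKM (8 DAP), 5792 and 4697 (14 DAP), then 5712 and 7196 (20 DAP), 7.27-fold higher, against 152 and 125 FPKM (8 DAP), then 286 and 325 (20 DAP) in BETL. LOC100281314 (GRMZM2G031317) had 2151 and 2848 FPKM (8 DAP), then 7655 and 7956 (20 DAP) in MATZ and 260.2 and 267 FPKM (8 DAP), then 315 and 312 (20 DAP) in BETL. GRMZM2G413717, without a name, was at 41.7 and 0 FPKM (8 DAP), 403 and 242 (14 DAP), then 4608 and 3828 (20 DAP), and its BETL libraries had 0 and 0 FPKM (8 DAP), then 473 and 506 (20 DAP). LOC100280457 (GRMZM2G406552) also rose but was far higher in BETL, with 982 and 1777 FPKM (8 DAP), then 12082 and 11417 (20 DAP) in MATZ and 61359 and 70372 FPKM (8 DAP), then 199091 and 226439 (20 DAP) in BETL.

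Cell division genes that were called fell, and histone genes were most of them. Of 53 tested members, 10 were lowered (18.9%, against 2.88% of all tested genes) and 0 raised. The median change was -0.11, against 0.33 for all tested genes. After median-of-ratios scaling 11 were lowered, and 10 after quantile normalization. Of the 10, 9 encode histones, the proteins that package new DNA. The whole list summed to 2689 and 2669 FPKM (8 DAP), 1228 and 1306 (14 DAP), then 1361 and 1353 (20 DAP).

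The core histone gene his2b2 (histone H2B) had 74.2 and 82 FPKM (8 DAP), 10.9 and 30.9 (14 DAP), then 0 and 0 (20 DAP) (log2 change -6.30 ± 0.49 SE, adjusted p = 0.000108). H4C13 (histone H4) had 96.9 and 123 FPKM (8 DAP), 9.9 and 27.2 (14 DAP), then 2.52 and 0 (20 DAP). H3C2 (histone H3) had 20.5 and 32.1 FPKM (8 DAP), 4.65 and 7.93 (14 DAP), then 0 and 0 (20 DAP). The linker histone gene hon110 had 301 and 245 FPKM (8 DAP), 16.5 and 38.9 (14 DAP), then 26 and 33.4 (20 DAP) (log2 change -3.16 ± 0.38 SE, adjusted p = 0.0015). His2a1 (histone H2A) had 393 and 441 FPKM (8 DAP), 86.9 and 42.1 (14 DAP), then 71.3 and 108 (20 DAP). For all 5, both libraries at 8 DAP were above all of those at 14 and 20 DAP, and most of the decline in FPKM was complete at 14 DAP. His2b5, his1a, hon101 and his1 were the other lowered histone genes, with changes of -3.83, -0.96, -1.22 and -2.39. His1 was not called after quantile normalization (adjusted p = 0.0624).

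MCM7, a subunit of the replicative helicase, had 6.34 and 8.35 FPKM (8 DAP), then 0 and 0 (20 DAP) (log2 change -3.05 ± 0.75 SE, adjusted p = 0.039). Outside the list and by the size of their change, RNRS3 (a ribonucleotide reductase small subunit, which makes DNA precursors) had 39.3 and 27.8 FPKM (8 DAP), then 0 and 0 (20 DAP). Nfd106 (a chromatin protein) had 28.1 and 53 FPKM (8 DAP), then 0 and 0 (20 DAP). Leaving out 1 library ended the calls of his2a1 (adjusted p up to 0.0531 without MATZ 8 DAP replicate 2), hon101 (adjusted p up to 0.149 without MATZ 20 DAP replicate 2 or MATZ 8 DAP replicate 1 or MATZ 8 DAP replicate 2), his1a (adjusted p up to 0.114 without MATZ 20 DAP replicate 1 or MATZ 20 DAP replicate 2 or MATZ 8 DAP replicate 1), his2b5 (adjusted p up to 0.105 without MATZ 20 DAP replicate 1 or MATZ 20 DAP replicate 2 or MATZ 8 DAP replicate 1 or MATZ 8 DAP replicate 2), MCM7 (adjusted p up to 0.141, lost without any 1 of 6 libraries), RNRS3 (adjusted p up to 0.114, lost without any 1 of 6 libraries) and his1 (adjusted p up to 0.158, lost without any 1 of 10 libraries). The list then had 5 lowered members without MATZ 20 DAP replicate 2, MATZ 8 DAP replicate 1 or MATZ 8 DAP replicate 2, and 8 without MATZ 20 DAP replicate 1, with 0 raised in each case. Tua4, an alpha-tubulin gene of the list, had 336 and 327 FPKM (8 DAP), then 317 and 301 (20 DAP) and was not called.

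Among sugar genes, 2 cell wall invertase genes fell and 1 sucrose synthase gene rose. Mn1, the cell wall invertase (Miniature1) at the boundary of mother and endosperm, had 1156 and 1071 FPKM (8 DAP), 464 and 559 (14 DAP), then 419.6 and 349 (20 DAP), 2.9-fold lower at the end (log2 change -1.54 ± 0.18 SE, adjusted p = 0.00128). It was lowered under both rescalings and without each library in turn. BETL held more of it throughout, with 7225 and 6251 FPKM (8 DAP), then 2259.6 and 2064 (20 DAP), and the change did not differ detectably between the tissues (difference of changes 0.10 ± 0.25 SE, adjusted p = 0.89). Incw3, another cell wall invertase, was at 2.27 and 1.65 FPKM (8 DAP), then 0 and 0 (20 DAP) and also fell (log2 change -1.56 ± 0.34 SE, adjusted p = 0.0248), at a level of about 2 FPKM and not after quantile normalization (adjusted p = 0.0521). Leaving out 1 library ended the call of incw3 (adjusted p up to 0.0844 without MATZ 20 DAP replicate 1 or MATZ 20 DAP replicate 2). Thus 2 of 5 tested invertase genes fell and 0 rose, with a median of -1.40.

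Of 4 sucrose synthase and sucrose phosphate synthase genes, sus1, which splits sucrose reversibly, rose from a low level, with 1.3 and 2.34 FPKM (8 DAP), 22.2 and 16.6 (14 DAP), then 17.1 and 17.2 (20 DAP) (log2 change 2.71 ± 0.45 SE, adjusted p = 0.00727). In BETL it had 27.1 and 23.8 FPKM (8 DAP), then 17.3 and 11.8 (20 DAP), and its change was higher in MATZ (difference of changes 3.50 ± 0.63 SE, adjusted p = 0.0236). Sh1, another sucrose synthase gene, had 7.97 and 1.36 FPKM (8 DAP), then 0 and 1 (20 DAP) and was not called (adjusted p = 0.238). None of 5 sugar transporters was called (median 0.36, but -0.16 after median-of-ratios scaling), although 2 were raised without MATZ 8 DAP replicate 1. Sdh1, sorbitol dehydrogenase, which converts sorbitol and fructose into each other, was picked out after its values were seen. It rose 12.8-fold, with 43.4 and 42.8 FPKM (8 DAP), 643 and 692 (14 DAP), then 536 and 570.3 (20 DAP) (log2 change 3.65 ± 0.15 SE, adjusted p = 1.21e-06). It was higher still in BETL, at 796 and 704 FPKM (8 DAP), then 5155 and 5949 (20 DAP).

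Of all tested genes 4.39% rose and 2.88% fell. Of 14 tested nitrogen assimilation genes 1 rose and 1 fell (7.14% each, median 0.78), a count that is only described. Both called genes encode glutamine synthetase. The enzyme joins ammonium to glutamate and makes glutamine, a main transport form of nitrogen. GLN6 had 12.9 and 7.73 FPKM (8 DAP), 77.9 and 104 (14 DAP), then 181 and 139 (20 DAP) (log2 change 3.85 ± 0.40 SE, adjusted p = 0.000663), and in BETL 17.6 and 17.9 FPKM (8 DAP), then 24.4 and 36.2 (20 DAP). Gln4 had 122 and 147 FPKM (8 DAP), 282 and 412 (14 DAP), then 56.5 and 67 (20 DAP), with its highest values at 14 DAP, and was lower at 20 than at 8 DAP (log2 change -1.11 ± 0.29 SE, adjusted p = 0.0497). The gln4 call lay at the threshold, and leaving out 1 library ended it: gln4 (adjusted p up to 0.166, lost without any 1 of 8 libraries). The GLN6 call held without each library in turn and under both rescalings.

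Water channel genes, or aquaporins, were called in both directions. Of 23 tested aquaporin genes 4 rose and 1 fell (median 0.74). PIP1-1, a plasma membrane aquaporin, had 320.5 and 265 FPKM (8 DAP), 242 and 374 (14 DAP), then 1334 and 1258 (20 DAP), 4.43-fold higher at 20 DAP (log2 change 2.15 ± 0.40 SE, adjusted p = 0.0122), and its step came after 14 DAP. SIP1-1 and SIP1-2, small basic aquaporins of inner membranes, were at 143 and 156 FPKM (8 DAP), then 299 and 328 (20 DAP), and at 74.8 and 87.9 FPKM (8 DAP), then 223 and 318 (20 DAP). Both lost their call after either rescaling. The count of raised members was 2 with median-of-ratios scaling and 3, pip2b among them, with quantile normalization. Tip3b, a vacuole membrane aquaporin, was listed at 0 at 8 DAP and had 9.18 and 8.93 FPKM at 20 DAP.

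Tip2b fell from 28.1 and 24.9 FPKM to 0 in both libraries of each later age (log2 change -4.78 ± 0.60 SE, adjusted p = 0.00175). Pip2b, the most abundant aquaporin, had 5913 and 5703 FPKM (8 DAP), 5962 and 6828 (14 DAP), then 8053 and 8064 (20 DAP) and was not called (log2 change 0.47 ± 0.17 SE, adjusted p = 0.148), except after quantile normalization (adjusted p = 9.49e-05). Leaving out 1 library ended the calls of PIP1-1 (adjusted p up to 0.0888 without MATZ 20 DAP replicate 1 or MATZ 20 DAP replicate 2 or MATZ 8 DAP replicate 1 or MATZ 8 DAP replicate 2), SIP1-1 (adjusted p up to 0.144, lost without any 1 of 6 libraries) and SIP1-2 (adjusted p up to 0.207, lost without any 1 of 8 libraries), and the list held 1 raised and 1 lowered member without each of the 4 compared libraries. The tip2b and tip3b calls held in all.

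Mineral carriers gave 1 raised and 1 lowered gene of 16 tested (6.25% each, median -0.74), with 1 raised and 2 lowered under each rescaling. Of all tested genes 4.39% rose and 2.88% fell, and the count is only described. NAR2.2, a partner protein of nitrate transporters, was at 9.29 and 16.4 FPKM (8 DAP), then 0 and 0 (20 DAP) (log2 change -3.74 ± 0.45 SE, adjusted p = 0.00147). Kch3, a potassium channel gene, was at 0 and 0 FPKM (8 DAP), then 6.19 and 9.27 (20 DAP). The phosphate transporter pht1 had 142 and 83.4 FPKM (8 DAP), 7.68 and 11.4 (14 DAP), then 3.23 and 9.85 (20 DAP) and missed the threshold (adjusted p = 0.0719), though not after quantile normalization (adjusted p = 0.0486). NRT1.2, a nitrate transporter, had 107 and 94.6 FPKM (8 DAP), then 65.8 and 66.6 (20 DAP) (adjusted p = 0.506). HAK17, a potassium transporter that is not in the list but was among the largest falls, had 136 and 100.2 FPKM (8 DAP), 33.4 and 74 (14 DAP), then 7.9 and 3.72 (20 DAP) (log2 change -4.18 ± 0.63 SE, adjusted p = 0.00461). Vpp1, the vacuolar pyrophosphatase, was the 1 raised member of 6 proton pump genes, with 13.5 and 20.0 FPKM (8 DAP), then 57.1 and 64.5 (20 DAP), but not under either rescaling. Leaving out 1 library ended the call of vpp1 (adjusted p up to 0.103 without MATZ 20 DAP replicate 1 or MATZ 20 DAP replicate 2 or MATZ 8 DAP replicate 1).

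**Figure D2:**
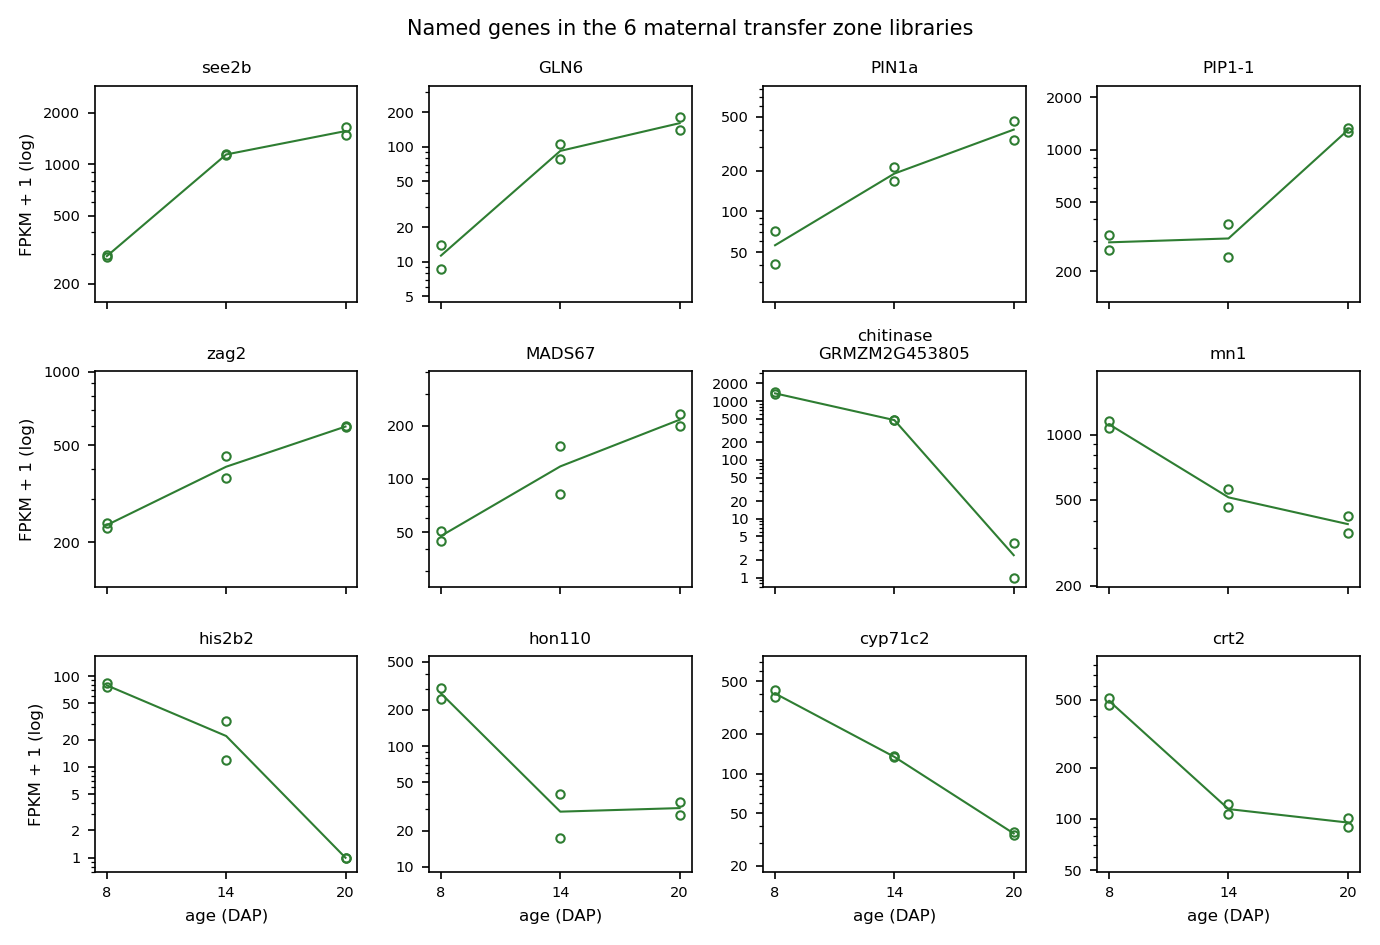
FPKM plus 1 on log axes, each with its own range, for 12 called genes in the 6 MATZ libraries; circles are single libraries and lines join the group means at 8, 14 and 20 DAP. The first 6 panels are raised genes and the other 6 are lowered. PIP1-1 changed after 14 DAP, hon110 and crt2 before it, and the chitinase gene GRMZM2G453805 was at 477 and 469 FPKM at 14 DAP but at 2.81 and 0 at 20 DAP.

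Auxin genes included 2 raised and 2 lowered of 43 tested (4.65% each, median 0.71), near the shares of all tested genes (4.39% and 2.88%). PIN1a, an auxin efflux carrier, had 70.8 and 39.6 FPKM (8 DAP), 210.3 and 168 (14 DAP), then 464 and 335 (20 DAP), 7.24-fold higher at the end (log2 change 2.87 ± 0.50 SE, adjusted p = 0.00897). AUX15 had 15.5 and 5.23 FPKM (8 DAP), 176 and 193 (14 DAP), then 135 and 212 (20 DAP). AUX3 fell, with 299 and 311 FPKM (8 DAP), 227 and 189 (14 DAP), then 86.6 and 64.2 (20 DAP) (log2 change -2.02 ± 0.30 SE, adjusted p = 0.00428). Yucca2, a flavin monooxygenase of auxin synthesis, was low at 1.48 and 3.16 FPKM (8 DAP), then 0 and 0 (20 DAP). GH3, an auxin conjugating enzyme gene and one of the most abundant of the list, had 357 and 257 FPKM (8 DAP), then 445 and 547 (20 DAP) and was not called (adjusted p = 0.0878). Without 1 library the calls were lost for PIN1a (adjusted p up to 0.0705 without MATZ 20 DAP replicate 1 or MATZ 8 DAP replicate 2), AUX15 (adjusted p up to 0.0957 without MATZ 20 DAP replicate 2 or MATZ 8 DAP replicate 2) and Yucca2 (adjusted p up to 0.0963 without MATZ 20 DAP replicate 1 or MATZ 20 DAP replicate 2), and Yucca2 was not called after quantile normalization.

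Cytokinin genes gave 3 raised and 2 lowered of 27 (median 0.02), with 1 raised and 3 lowered after median-of-ratios scaling and 1 raised and 4 lowered after quantile normalization. CKX4, a cytokinin oxidase that degrades the hormone, was abundant, at 463 and 480.2 FPKM (8 DAP), 880.1 and 930 (14 DAP), then 769 and 876 (20 DAP) (log2 change 0.80 ± 0.19 SE, adjusted p = 0.0353). The rise was below 2-fold and was lost under both rescalings. The related CKX4b and cko1 fell to near or at 0, from 18.7 and 22.9 FPKM and from 14.2 and 17.2. On the signalling side, HP1 (a histidine phosphotransfer protein) had 84.2 and 72.7 FPKM (8 DAP), then 276 and 240.5 (20 DAP). The response regulator gene RR10 had 0 and 0.563 FPKM (8 DAP), then 13.5 and 10.3 (20 DAP). RR10 kept its call under both rescalings, whereas HP1 did not. Only cko1 of these 5 was called without each library in turn, and leaving out 1 library ended the calls of CKX4 (adjusted p up to 0.167 without MATZ 20 DAP replicate 1 or MATZ 20 DAP replicate 2 or MATZ 8 DAP replicate 1 or MATZ 8 DAP replicate 2), CKX4b (adjusted p up to 0.102 without MATZ 20 DAP replicate 1 or MATZ 20 DAP replicate 2 or MATZ 8 DAP replicate 1 or MATZ 8 DAP replicate 2), RR10 (adjusted p up to 0.0735 without MATZ 20 DAP replicate 1 or MATZ 20 DAP replicate 2) and HP1 (adjusted p up to 0.207, lost without any 1 of 8 libraries).

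Ethylene genes held 2 raised and 2 lowered members of 34 (5.88% each), near the shares of all tested genes (4.39% and 2.88%). Their median of 0.34 was that of all tested genes (0.33). Of the genes for ACC oxidase, which makes ethylene, acco20 had 58.2 and 52.8 FPKM (8 DAP), then 185 and 169.8 (20 DAP). ACO31 had 7.63 and 12.9 FPKM (8 DAP), then 0 and 0 (20 DAP). The response factor gene EREB98 had 72.9 and 108 FPKM (8 DAP), then 207 and 268 (20 DAP). EREB179 had 80.4 and 66.1 FPKM (8 DAP), then 0 and 16.1 (20 DAP). Neither raised member stayed called after a rescaling. The acco20 call was lost when either MATZ 20 DAP replicate or MATZ 8 DAP replicate 2 was left out. The EREB98 call was lost without any 1 of 5 libraries, and that of EREB179 without any 1 of 11 libraries. Of 31 abscisic acid genes 1 fell, the receptor gene PYL10, at 24.1 and 7.66 FPKM (8 DAP), then 0 and 0 (20 DAP). Its call was lost without 1 library: PYL10 (adjusted p up to 0.195, lost without any 1 of 10 libraries). None of 4 gibberellin genes was called.

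MADS-box genes gave 3 raised and 0 lowered of 28 tested (median 1.09). MADS4 had 432 and 491 FPKM (8 DAP), 888 and 829 (14 DAP), then 1203 and 1121 (20 DAP) (log2 change 1.33 ± 0.19 SE, adjusted p = 0.00367). Zag2, an ovule identity gene of the AGAMOUS group, had 228 and 239.5 FPKM (8 DAP), 365 and 449 (14 DAP), then 592 and 599 (20 DAP) (log2 change 1.35 ± 0.30 SE, adjusted p = 0.0274). MADS67 had 49.6 and 43.5 FPKM (8 DAP), 152 and 81.4 (14 DAP), then 233 and 197 (20 DAP) (log2 change 2.18 ± 0.36 SE, adjusted p = 0.00729). In each case both libraries at 20 DAP were the highest of the 6. Only MADS67 stayed called with median-of-ratios scaling, where the list median was 0.79, and all 3 did with quantile normalization. Without 1 library the zag2 call was lost: zag2 (adjusted p up to 0.121, lost without any 1 of 6 libraries). Zmm6 had 447 and 443 FPKM (8 DAP), then 824 and 758 (20 DAP) and did not reach the threshold (adjusted p = 0.0632). In BETL the levels at 20 DAP were 96.6 for MADS4, 52.8 for zag2 and 16.8 for MADS67 (mean FPKM).

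Other regulators were called at about the share of all tested genes (4.39% raised, 2.88% lowered). Of 38 NAC and WRKY genes 2 rose (5.26%) and 1 fell (2.63%). Nac4 had 3.68 and 0 FPKM (8 DAP), 57 and 85.7 (14 DAP), then 67.8 and 81.2 (20 DAP). NAC1 had 15.8 and 5.64 FPKM (8 DAP), then 54.6 and 35.3 (20 DAP). The WRKY gene GRMZM2G125653 had 37.5 and 27.7 FPKM (8 DAP), then 2.43 and 0 (20 DAP). Of 33 homeobox genes 1 rose and 1 fell (3.03% each). HB34 rose from 0 in both libraries at 8 DAP to 48.8 and 55.2 FPKM at 20 DAP (log2 change 5.72 ± 0.55 SE, adjusted p = 0.000408). HB122 fell from 2.95 and 2.34 FPKM to 0. The medians of these lists were 0.70 and 0.30. HB34 was called without each library in turn. The nac4 call was lost when MATZ 20 DAP replicate 2 or MATZ 8 DAP replicate 2 was left out, and that of HB122 without MATZ 20 DAP replicate 2. The WRKY call was lost when MATZ 20 DAP replicate 2 or either MATZ 8 DAP replicate was left out. The NAC1 call was lost without any 1 of 7 libraries and under both rescalings.

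Genes for 2 proteases rose in the maternal zone. Of 24 tested genes of cell death, autophagy and proteolysis 3 rose and 0 fell (median 0.45). See2b, a legumain-type cysteine protease that processes proteins in the vacuole, had 293 and 284 FPKM (8 DAP), 1150.2 and 1132 (14 DAP), then 1484 and 1647 (20 DAP), 5.42-fold higher (log2 change 2.43 ± 0.19 SE, adjusted p = 9.59e-05). Ccp2, a papain-type cysteine protease, had 23.8 and 16.4 FPKM (8 DAP), 72.8 and 50.7 (14 DAP), then 154 and 139.7 (20 DAP) (log2 change 2.83 ± 0.44 SE, adjusted p = 0.00524). Atg8c, which coats autophagosomes, had 134 and 132 FPKM (8 DAP), 377 and 369 (14 DAP), then 285 and 276 (20 DAP). See2b and ccp2 held under both rescalings and without each library in turn. Atg8c was lost under both rescalings, and without 1 library: Atg8c (adjusted p up to 0.058 without MATZ 20 DAP replicate 1 or MATZ 20 DAP replicate 2). The most abundant protease gene, ccp1, had 2776 and 2379 FPKM (8 DAP), 2246 and 2418 (14 DAP), then 2609 and 2726 (20 DAP) and was not called (adjusted p = 0.937).

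Defense genes changed in both directions, 2 up and 2 down of 9 tested (median -1.0). The chitinase gene GRMZM2G453805 (chromosome 3, 212009199 to 212010553) had 1298 and 1403 FPKM (8 DAP), 477 and 469 (14 DAP), then 2.81 and 0 (20 DAP) (log2 change -9.43 ± 0.74 SE, adjusted p = 0.000108), one of the largest falls of any named gene. Another chitinase gene, GRMZM2G005633, rose, with 42.8 and 30.5 FPKM (8 DAP), 252 and 339 (14 DAP), then 245 and 284 (20 DAP) (log2 change 2.83 ± 0.31 SE, adjusted p = 0.000808). Chitinases cut the fungal wall polymer chitin. PR10 was listed at 0 in all 4 libraries at 8 and 14 DAP and had 11.5 and 59.1 FPKM at 20 DAP, and pr5, a thaumatin-like protein gene, was at 8.82 and 12.3 FPKM (8 DAP), then 0 and 0 (20 DAP). Without 1 library the PR10 call was lost, PR10 (adjusted p up to 0.0916 without MATZ 20 DAP replicate 2 or MATZ 8 DAP replicate 1 or MATZ 8 DAP replicate 2), and the other 3 held. Plt1, a lipid transfer protein gene and 1 of 3 tested, fell, with 148 and 242 FPKM (8 DAP), then 43 and 25.1 (20 DAP). Its call was lost when MATZ 20 DAP replicate 2 or MATZ 8 DAP replicate 2 was left out.

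Benzoxazinoid genes, a group picked out after values were seen and therefore only described, were lower at 20 DAP where called. These compounds are antifungal and insect-deterrent metabolites of maize seedlings, stored as glucosides. Of 8 tested genes of their synthesis and release 4 fell and 0 rose, while 2.88% of all tested genes fell. Under each rescaling 4 were called lowered. The P450 gene cyp71c2 had 382 and 427 FPKM (8 DAP), 134 and 132 (14 DAP), then 35.3 and 33 (20 DAP). BX5 had 194 and 189 FPKM (8 DAP), 70.9 and 47.8 (14 DAP), then 27.8 and 20.2 (20 DAP). BX4 had 93.2 and 49.9 FPKM (8 DAP), 23.7 and 20.7 (14 DAP), then 13 and 7.45 (20 DAP). Each declined at both steps, and cyp71c2 was 11.8-fold lower at 20 DAP (log2 change -3.53 ± 0.36 SE, adjusted p = 0.000575). Glu1, a beta-glucosidase that releases the active compound, was at 42.1 and 17.2 FPKM at 8 DAP and listed at 0 in the 4 later libraries. Bx8 and bx9, glucosyltransferase genes, were not called. They had 36.4 and 49.7 FPKM (8 DAP), then 34.4 and 40.9 (20 DAP), and 5.95 and 6.81 FPKM (8 DAP), then 4.35 and 9.46 (20 DAP). Leaving out 1 library ended the calls of BX5 (adjusted p up to 0.063 without MATZ 20 DAP replicate 2) and BX4 (adjusted p up to 0.188, lost without any 1 of 8 libraries).

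Genes for protein folding in the endoplasmic reticulum were also grouped after their values were seen, so their counts are only described. Of 16 tested members 5 fell and 0 rose, while 2.88% of all tested genes fell and 4.39% rose. Crt2 (calreticulin) had 513 and 467 FPKM (8 DAP), 106 and 121 (14 DAP), then 88.2 and 100.4 (20 DAP) (log2 change -2.37 ± 0.32 SE, adjusted p = 0.00262). The protein disulfide isomerase gene pdi had 678 and 591 FPKM (8 DAP), 209 and 233 (14 DAP), then 244 and 272 (20 DAP) (log2 change -1.29 ± 0.16 SE, adjusted p = 0.00154). Most of the drop of both had occurred by 14 DAP. Pdi6, b-70 and bip2, the last 2 for the lumenal chaperone BiP, had changes of -1.23, -1.40 and -1.80. The mean was lower at 20 DAP for 13 of the 16 genes, a count given without its share over all tested genes. Under each rescaling 6 were called lowered. The pdi6 call was lost when either MATZ 20 DAP replicate or MATZ 8 DAP replicate 1 was left out. That of b-70 was lost without any 1 of the MATZ 8 and 20 DAP libraries, and that of bip2 without any 1 of 8 libraries. Fits on fewer libraries have less precision, so these losses do not show that a single library made the call.

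Wall genes were called in both directions. Of 31 wall loosening and polysaccharide genes 2 rose (6.45%, against 4.39% of all tested genes) and 1 fell (3.23%, against 2.88%; median 0.23), with 2 raised and 4 lowered after median-of-ratios scaling and 2 raised and 5 lowered after quantile normalization. BURP7 had 63.6 and 25.9 FPKM (8 DAP), 400.3 and 332 (14 DAP), then 277 and 263 (20 DAP) (log2 change 2.70 ± 0.34 SE, adjusted p = 0.00168). The alpha-expansin gene EXPA5 had 1.82 and 0 FPKM (8 DAP), then 21.5 and 21.1 (20 DAP). The beta-expansin gene expB2 had 187 and 159.9 FPKM (8 DAP), then 58.7 and 37.4 (20 DAP). Expansins loosen the wall during cell enlargement. Of 20 lignin and secondary wall genes 2 fell (10%, against 2.88% of all tested genes) and 0 rose (median -0.71). Laccase-13 (GRMZM5G814718), an oxidase of lignin precursors, was at 354 and 247 FPKM (8 DAP), 105 and 98.2 (14 DAP), then 64.3 and 79.3 (20 DAP). The peroxidase gene PER42 was at 47.3 and 45.7 FPKM (8 DAP), 2.58 and 20.7 (14 DAP), then 0 and 0 (20 DAP). BURP7 held without each library in turn, which was not so for EXPA5 (adjusted p up to 0.103 without MATZ 20 DAP replicate 1 or MATZ 20 DAP replicate 2 or MATZ 8 DAP replicate 2), expB2 (adjusted p up to 0.0948 without MATZ 20 DAP replicate 2 or MATZ 8 DAP replicate 1), Laccase-13 (adjusted p up to 0.129 without MATZ 20 DAP replicate 1 or MATZ 20 DAP replicate 2 or MATZ 8 DAP replicate 1 or MATZ 8 DAP replicate 2) and PER42 (adjusted p up to 0.0854 without MATZ 20 DAP replicate 1 or MATZ 20 DAP replicate 2 or MATZ 8 DAP replicate 1 or MATZ 8 DAP replicate 2). None of 6 vascular genes (median 1.06) or 8 flavonoid genes (median -0.04) was called, although 2 vascular genes were raised without MATZ 8 DAP replicate 1.

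Stress and energy lists held 0 to 3 calls each. Of 40 redox enzyme genes 2 rose (5.0%, against 4.39% of all tested genes). Dhar2 (dehydroascorbate reductase) had 5.06 and 0 FPKM (8 DAP), 41.3 and 55 (14 DAP), then 101 and 70.2 (20 DAP) (log2 change 5.11 ± 0.64 SE, adjusted p = 0.00173). Gst42 (a glutathione S-transferase) had 0 and 0 FPKM (8 DAP), then 54.8 and 106 (20 DAP). Of 23 heat shock genes, hsp18 rose by 3.37 on the log2 scale and 2 factor genes fell (8.70%, against 2.88% of all tested genes), with 3 lowered after median-of-ratios scaling. Hsf12 had 304 and 215 FPKM (8 DAP), then 70.8 and 81 (20 DAP). HSF2 had 2.21 and 2.38 FPKM (8 DAP), then 0 and 0 (20 DAP). Of 11 low-oxygen genes 1 fell and 1 rose (9.09% each), while 3 were lowered and 0 raised after median-of-ratios scaling and 2 lowered and 0 raised after quantile normalization. Adh1 (alcohol dehydrogenase) fell, with 145 and 140.3 FPKM (8 DAP), 70.6 and 93.4 (14 DAP), then 67.8 and 52.4 (20 DAP) (log2 change -1.24 ± 0.24 SE, adjusted p = 0.0142). Eno1 (enolase) rose, with 32.2 and 9.56 FPKM (8 DAP), then 120 and 51.3 (20 DAP), but not under either rescaling. Without 1 library the calls were lost for gst42 (adjusted p up to 0.142, lost without any 1 of 6 libraries), hsp18 (adjusted p up to 0.0585 without MATZ 20 DAP replicate 2), HSF2 (adjusted p up to 0.0607 without MATZ 20 DAP replicate 1 or MATZ 20 DAP replicate 2), adh1 (adjusted p up to 0.0877 without MATZ 20 DAP replicate 2) and eno1 (adjusted p up to 0.182, lost without any 1 of 10 libraries). None of 32 ribosomal protein genes (median 0.32) or of 20 photosynthesis genes (median -0.18) was called.

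**Figure D3:**
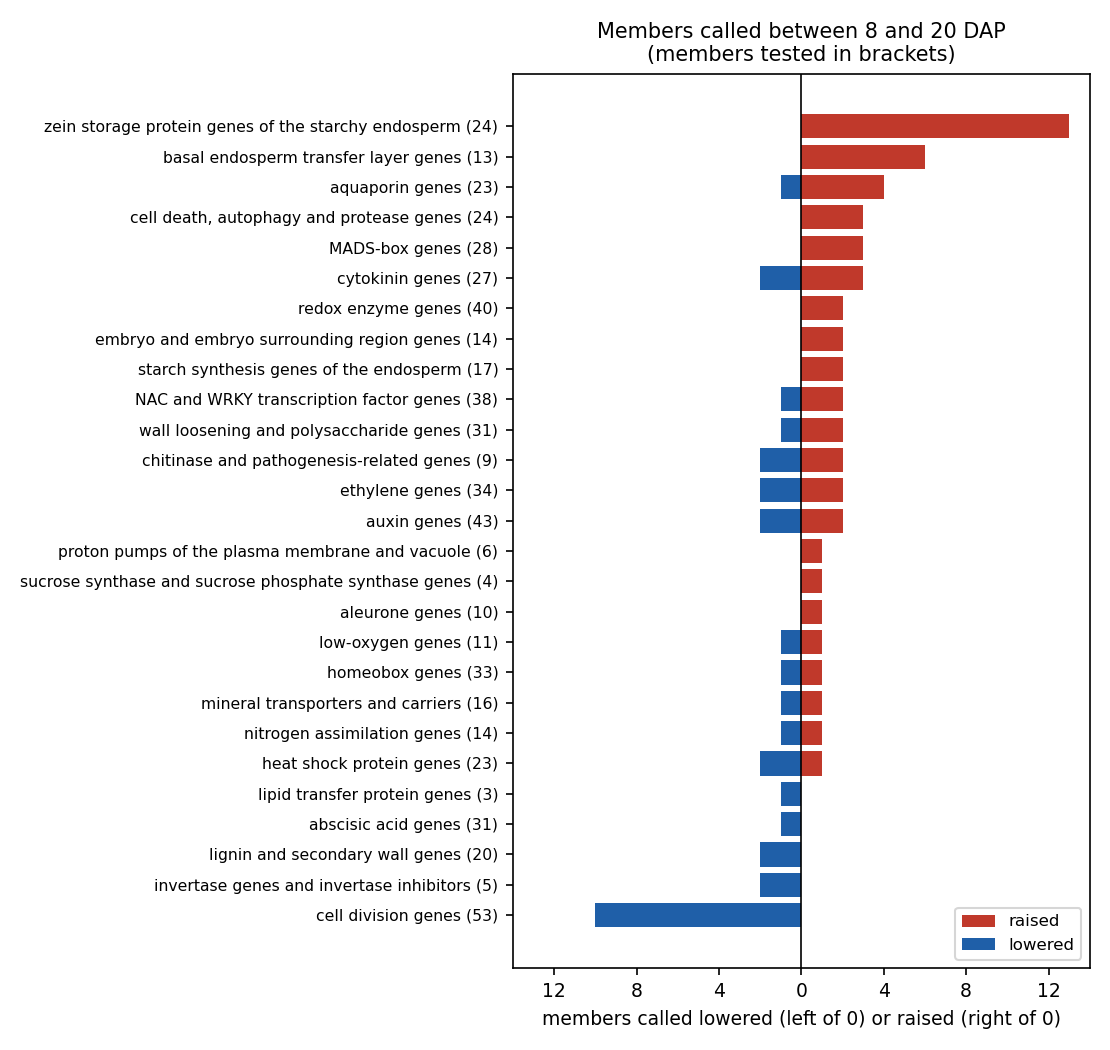
Horizontal bars count the members of 27 gene lists called raised (red, right of 0) or lowered (blue, left of 0) between 8 and 20 DAP, with the number of tested members in brackets; lists without a call are left out. Zein genes had the most raised members (13 of 24) and cell division genes the most lowered (10 of 53).

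Transfer layer, zein, starch synthesis and embryo genes had higher sums in the maternal zone at 20 than at 8 DAP, while the sums of aleurone genes overlapped. Of the 13 transfer layer genes 6 rose and 0 fell (median 1.16), with 6 raised under each rescaling. MEG1, at 24.6 and 89.1 FPKM (8 DAP), then 16.9 and 0 (20 DAP), was not called (adjusted p = 0.0816), but was called lowered after quantile normalization (adjusted p = 0.0327). The 13 genes together had a summed FPKM in MATZ of 1214 and 1922 (8 DAP), 7068 and 6275 (14 DAP), then 11330 and 9968 (20 DAP). Betl3 had 209 and 547 FPKM (8 DAP), 1636 and 1784 (14 DAP), then 5121 and 4535 (20 DAP) (log2 change 3.83 ± 0.35 SE, adjusted p = 0.000288). Betl-9 had 138 and 243 FPKM (8 DAP), 2231 and 1776 (14 DAP), then 2358 and 1904 (20 DAP). Betl10 had 167 and 209 FPKM (8 DAP), 783 and 639.6 (14 DAP), then 1025 and 967 (20 DAP). Betl4, betl1c and tcrr-1, a response regulator of transfer cells, rose by 3.26, 4.56 and 5.52 on the log2 scale. These genes encode mostly small secreted peptides.

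The transfer layer genes did not all move in proportion to their level in BETL. Betl3 in MATZ was 5.57% of its BETL mean at 8 DAP and 13.1% at 20 DAP, and betl10 went from 3.15% to 19.4%. Bap2 went from 3.34% to 21.5%, since it was at 429 and 440.3 FPKM (8 DAP), then 286 and 365 (20 DAP) in MATZ (not called, adjusted p = 0.447) but at 11351 and 14698 FPKM (8 DAP), then 1645 and 1389 (20 DAP) in BETL. The raised count without any 1 compared library was 5 or 6, and the betl1c call was lost without 1 library: betl1c (adjusted p up to 0.0665 without MATZ 20 DAP replicate 1 or MATZ 20 DAP replicate 2). Reads shared between near-identical members are split in a way that is not stated, so the values of single betl, zein, meg and esr genes are uncertain.

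Zein genes, which encode the storage proteins of the starchy endosperm, rose in 13 of 24 tested members (median 3.03), 12 under each rescaling. The sum of all 26 members was 52.4 and 81.1 FPKM (8 DAP), 11709 and 11359 (14 DAP), then 857 and 1204 (20 DAP). The 14 DAP sum was 263% of that in BETL and the 20 DAP sum 67.6%. Bz15 had 7.1 and 27.9 FPKM (8 DAP), 2673 and 2581 (14 DAP), then 214 and 411 (20 DAP). Gz27 had 4.64 and 9.64 FPKM (8 DAP), 1084 and 1049 (14 DAP), then 53.8 and 79.2 (20 DAP). Z1A1_3 had 0 and 0 FPKM (8 DAP), 413 and 503 (14 DAP), then 61.4 and 84.8 (20 DAP). The peak at 14 DAP, far above both ends, was shared by all 3. Without 1 of the compared libraries the raised count was between 8 and 11, lowest without MATZ 20 DAP replicate 1.

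Of 17 starch synthesis genes 2 rose (median 0.13, against 0.33 for all tested genes), while under each rescaling 1 was raised and 1 lowered (AGP2). Their sum was 84.5 and 58.6 FPKM (8 DAP), then 135 and 115 (20 DAP). Wx1 (granule-bound starch synthase) had 3.58 and 5.4 FPKM (8 DAP), 45.9 and 64.8 (14 DAP), then 48.5 and 33.5 (20 DAP). Sh2 (a subunit of ADP-glucose pyrophosphorylase) had 1.24 and 0 FPKM (8 DAP), then 6.85 and 10.9 (20 DAP). Of 14 embryo genes glb3 rose, from 0 to 38.7 and 45.7 FPKM, and glb2, at 0 and then 2.50 and 10.1. The defining embryo storage gene GLB1 (GRMZM2G067402) had 11.6 and 28.6 FPKM (8 DAP), then 82 and 121 (20 DAP) and was not called (adjusted p = 0.423). Of 10 aleurone genes (median 0.00) vpp1 alone was raised, the same gene as among the pumps. The aleurone list summed to 139 and 172 FPKM (8 DAP), then 238 and 166 (20 DAP). Sh2 and glb2 were lost under both rescalings, and without 1 library: sh2 (adjusted p up to 0.17, lost without any 1 of 6 libraries) and glb2 (adjusted p up to 0.112 without MATZ 20 DAP replicate 2 or MATZ 8 DAP replicate 1 or MATZ 8 DAP replicate 2). Of the 1062 raised genes, 792 had a higher mean in MATZ than in BETL at 20 DAP and 270 a higher mean in BETL. At 8 DAP, 482 of them had a higher mean in BETL. The genes were chosen for a rise in MATZ to 20 DAP, which favours a higher MATZ mean at that age. These counts are given without a share over all tested genes. The part of endosperm transcripts in the changes was not tested.

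**Figure D4:**
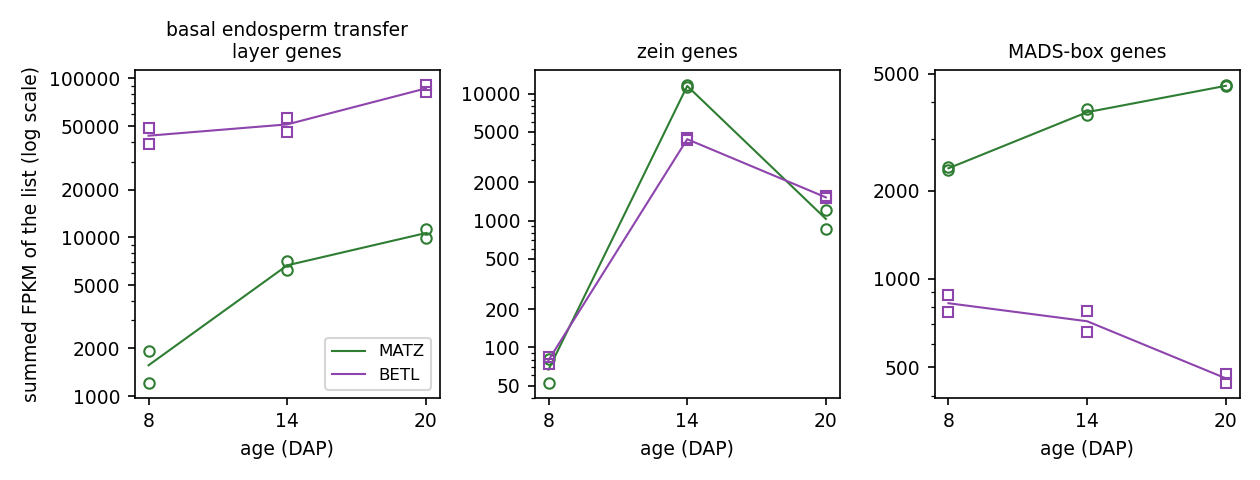
Summed FPKM of all members of 3 lists on log axes, by age, in MATZ (green circles) and BETL (purple squares); symbols are single libraries and lines join group means. Transfer layer genes in MATZ summed to 1214 and 1922 FPKM at first and to 11330 and 9968 at the end, 12.3% of the BETL sum, zein genes peaked at 14 DAP in both tissues, and MADS-box genes were above BETL at every age.

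Most called genes had reached most of their change at 14 DAP. The 14 DAP mean lay between the means of the end ages for 838 of 1062 raised and 606 of 697 lowered genes, and above both for 187 raised genes. On the log2 scale, 730 raised and 541 lowered genes were nearer to their 20 DAP level than to their 8 DAP level at 14 DAP. These counts describe genes chosen on the end ages and carry no test. PP2C19, a protein phosphatase gene, was among the early ones, with 6.25 and 2.24 FPKM (8 DAP), 248 and 206 (14 DAP), then 141 and 132 (20 DAP). Aox1 (alternative oxidase) was among the late ones, with 0 and 0 FPKM (8 DAP), 2.73 and 0 (14 DAP), then 26.9 and 25.8 (20 DAP). Both were picked from the called genes after their values were seen.

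Other raised genes with a large change and little known of them here were alt, NRP1 and sat1. Alt had 3.36 and 0 FPKM (8 DAP), 40.8 and 58.6 (14 DAP), then 145 and 227 (20 DAP). NRP1 had 0.879 and 0 FPKM (8 DAP), 20.0 and 34.8 (14 DAP), then 68.8 and 56 (20 DAP). Sat1 had 0 and 3.02 FPKM (8 DAP), 0 and 0 (14 DAP), then 42.9 and 121 (20 DAP). Among the largest falls, hir3 (a hypersensitive-induced reaction protein) had 157 and 88.4 FPKM (8 DAP), 7.11 and 10.5 (14 DAP), then 9.14 and 0 (20 DAP). The sat1 call was lost without any 1 of the MATZ 8 and 20 DAP libraries, and that of hir3 without either MATZ 8 DAP replicate. These losses, in fits with less precision, do not show that a single library made the call.

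Whether a change in MATZ differed from the change in BETL over the same ages was tested in the same fit. The difference was called for 565 genes (2.33%), with the change higher in MATZ for 315 (1.3%) and lower for 250 (1.03%). In BETL itself 1940 genes rose (8.01%) and 835 fell (3.45%). The steps of low values would correspond to 144877 and 254683 fragments in BETL at 8 DAP. At 20 DAP they would correspond to 706318 and 553350. Genes above 0 numbered 12609 and 15220 in BETL at 8 DAP, then 21309 and 20768 at 20 DAP. Inferred depth thus differed with age in BETL, and its part in the BETL changes and in the differences was not tested. Of the genes raised in MATZ 127 rose more than in BETL and 9 less. Of the lowered genes 125 had a lower change than in BETL and 25 a higher one. The MATZ change that chose these genes is also part of the difference. The choice thus favours such a split, which is only described. The 3 raised MADS-box genes and 3 others were among 6 of 28 list members with a higher change in MATZ; 4 of 13 transfer layer genes and 4 of 23 aquaporin genes were too.

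CKX4 had 593 and 535 FPKM (8 DAP), then 55.2 and 46.7 (20 DAP) in BETL while it rose in MATZ (difference of changes 4.24 ± 0.27 SE, adjusted p = 0.000237). See2b had 131 and 102 FPKM (8 DAP), then 71.4 and 66.9 (20 DAP) in BETL (difference of changes 3.17 ± 0.26 SE, adjusted p = 0.000919). Ccp1 was not called in MATZ, and in BETL it was at 2178 and 1737 FPKM (8 DAP), then 242 and 295 (20 DAP) (difference of changes 2.91 ± 0.25 SE, adjusted p = 0.000967). Pip2b was not called in MATZ either, and in BETL it was at 2520.2 and 2442 FPKM (8 DAP), then 628 and 542 (20 DAP) (difference of changes 2.56 ± 0.25 SE, adjusted p = 0.00159). The maternal and endosperm sides thus ended further apart in these 4 genes than they began.

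BURP7 and betl10, higher in BETL at both ages, came closer to it in MATZ. BURP7 had 8914 and 11080.5 FPKM (8 DAP), then 4702 and 4913 (20 DAP) in BETL (difference of changes 3.75 ± 0.48 SE, adjusted p = 0.0053). Betl10 had 5496 and 6439 FPKM (8 DAP), then 5559 and 4718 (20 DAP) in BETL (difference of changes 2.62 ± 0.25 SE, adjusted p = 0.00162). In the other direction, adh1 fell in MATZ while BETL had 206 and 215 FPKM (8 DAP), then 343 and 285 (20 DAP) (difference of changes -1.81 ± 0.34 SE, adjusted p = 0.0261). Grp1 fell further in MATZ than in BETL, where it had 5874 and 5887 FPKM (8 DAP), then 2549 and 2492 (20 DAP) (difference of changes -1.70 ± 0.16 SE, adjusted p = 0.00144). The abundant transcript GRMZM2G166141 fell less in MATZ than in BETL, with 93992 and 97409.5 FPKM (8 DAP), then 40.9 and 35.9 (20 DAP) in BETL (difference of changes 4.09 ± 0.31 SE, adjusted p = 0.000788).

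**Figure D5:**
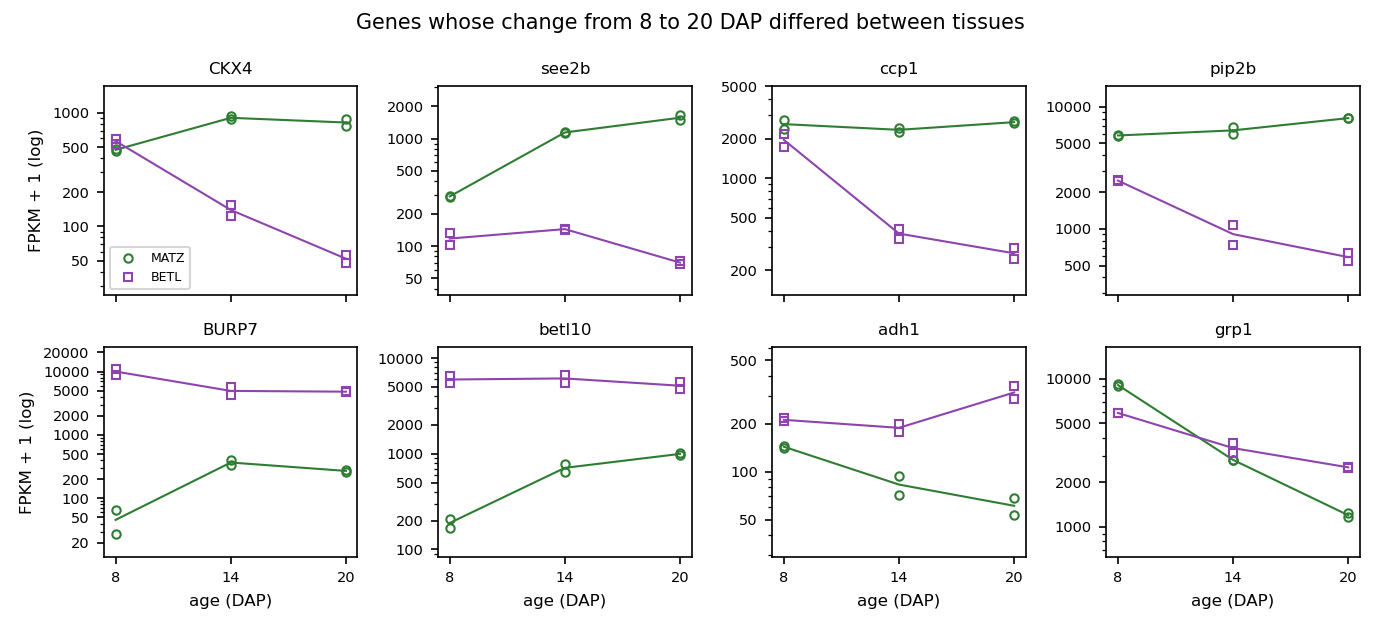
FPKM plus 1 on log axes, each with its own range, for 8 genes whose change from 8 to 20 DAP differed between the tissues; green circles are MATZ libraries, purple squares are BETL libraries and lines join group means. CKX4, see2b, ccp1 and pip2b separate with age, BURP7 and betl10 approach each other, grp1 falls more in MATZ than in BETL, and adh1 falls in MATZ but not in BETL.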

How the data were processed

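RNA was sequenced from MATZ and BETL at 3 ages, 2 libraries each, and groups are the labelled tissue and age. The deposited values are FPKM as the authors made them, with a column for each library, per the file headers. The submitters' processing notes list Bowtie2, Cufflinks and TopHat2. Their versions, the genome build, the annotation, the strand and the depth per library are not stated, so the precision that depth gives is unknown.

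Tests covered the 24213 of 39423 gene models that reached 1 FPKM in 2 or more libraries, on the log2(FPKM + 1) scale with limma 3.58.1 in R 4.3.3 (6 group means, all 12 libraries, eBayes with trend). This left 6 residual degrees of freedom. Genes were called at a Benjamini-Hochberg adjusted p under 0.05 over all tested genes. On simulated data of the same size, 17 of 50 genes lowered by 3 and 27 of 50 raised by 3 on the log2 scale were called. So were 10 of 50 lowered by 2, 8 of 50 raised by 2, and 0 of 24013 unchanged genes. The simulation drew normal noise around 1 mean per gene, with the same spread in all groups, and changed only genes above a set mean level. It modelled no other group differences and no values listed at 0 in 1 library of a group. These shares may therefore not carry over to the real data. Names came from RefSeq's gene table of Zm-B73-REFERENCE-NAM-5.0, which matched 16018 of the tested IDs; what a gene encodes was taken from its name and not checked against sequence.

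Named genes were the 12 largest called changes per direction with a descriptive name, the 5 largest FPKM differences, up to 4 members per list with the highest mean, anchors, and 5 differences of changes per direction, 169 genes. Another 156 called or grouped genes were added after their values were seen. The comparison, the 35 gene lists and the tests were chosen with earlier results of these data known; trehalose phosphate genes and amino acid transporters had under 3 tested members and are not described. The table has no column outside the 12 libraries. Python 3.11.15, pandas 2.3.3, numpy 2.4.6 and matplotlib 3.10.9 made tables and figures. Alternatives were other pseudocounts, filters, scalings, a replicate block, fits on fewer libraries, no trend, library weights and leaving out each library.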

Additional observations from a re-analysis of the deposited data

Results flagged for a closer look

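Each result below is a named gene whose change from 8 to 20 DAP differed between MATZ and BETL in the same limma fit (adjusted p under 0.05), given as the MATZ change minus the BETL change on the log2(FPKM + 1) scale. Such differences were called for 2.33% of all tested genes, and a fold against a group listed at 0 depends on the pseudocount.

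The change was higher in MATZ for esr1 (7.05), an embryo surrounding region gene listed at 0 in MATZ at both ages that had 110.3 and 157 FPKM (8 DAP), then 0 and 0 (20 DAP) in BETL. It was also higher for tcrr-1 (4.79), hyp1 (4.72), Laccase-13 GRMZM5G814718 (4.53) and CKX4 (4.24). SAG (3.16) had a higher change in MATZ too. Hyp1, not called in MATZ, had 189 and 144 FPKM (8 DAP), then 78.8 and 94.3 (20 DAP) there and 288 and 229 FPKM (8 DAP), then 5.07 and 3.38 (20 DAP) in BETL.

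Protease and stress genes with a higher change in MATZ were mir3 (3.18), see2b (3.17), ccp1 (2.91), hsp18f (2.57), adh2 (2.47) and dehydrin3 (1.84). Transport and nutrient genes of this direction were SIP1-2 (3.51), sus1 (3.50), GLN6 (3.14), pip2b (2.56), PAPhy (2.31), pip2e (1.91) and SIP1-1 (1.67). Among regulators and hormone genes they were GH3 (3.14), MADS67 (2.92), zag2 (2.81), DOF36 (2.73), zmm27 (1.83), MADS4 (1.42) and, with wall and chromatin genes, BURP7 (3.75), LAC1 (2.99) and his1a (1.37). Transfer layer genes here were bap2 (2.67), betl10 (2.62) and betl4 (2.28).

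Abundant transcripts without a descriptive name had a higher change in MATZ as well: GRMZM2G166141 (4.09), LOC100284997 (2.63), LOC100193620 (2.05), LOC100304374 (1.92), LOC100275455 (1.71), LOC100280457 (1.46) and LOC100281314 (1.41). The first 4 of these fell in MATZ, and their difference is a smaller fall than in BETL.

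The change was lower in MATZ for the chitinase gene GRMZM2G453805 (-8.03), which was abundant in MATZ only at the earlier ages and had 12.4 and 2.9 FPKM (8 DAP), then 1.05 and 2.67 (20 DAP) in BETL. Storage genes in this direction were bz15 (-4.55), wx1 (-3.81) and glb3 (-2.73), which were raised in both tissues' means. Ann5 (-4.31) and mde1 (-4.09) were not called in MATZ, and mde1 had 9.49 and 8.98 FPKM (8 DAP), then 187 and 158 (20 DAP) in BETL.

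Genes listed at 0 in BETL at both ages that fell to 0 in MATZ were NAR2.2 (-3.74), YAB3 (-3.68), CNR10 (-3.58), pr5 (-3.51) and ACO31 (-3.46). The rest were his2b2 (-3.41), gln4 (-2.50), gpc2 (-1.81), adh1 (-1.81), grp1 (-1.70), tua4 (-1.70), gst1 (-1.51) and RAB15 (-1.13).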

How the results depend on the processing

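Between 8 and 20 DAP 1759 genes were called (1062 raised and 697 lowered). Of the named genes, 45 of 139 raised and 34 of 74 lowered ones were called without each of the 12 libraries in turn, and 0 named calls reversed in any setting. The 6 MATZ libraries alone gave 1048 calls (525 raised). The 4 compared libraries alone gave 0 by limma (0 raised and 0 lowered), with a smallest adjusted p of 0.0778. In that fit 4601 genes had an unadjusted p under 0.05, against 5073 in the fit of 12. The fit of 4 has fewer samples and lacks the BETL 20 DAP libraries, whose replicates were the closest. Those correlated at 0.91, against 0.81 for MATZ 8 DAP and 0.79 for MATZ 20 DAP. The spread shared by all 12 libraries may thus understate that of MATZ, for which no separate test was run. In the fit with library weights, each BETL 20 DAP library had a weight of 2.38 and the MATZ libraries had 0.83 to 0.88. That fit called 1357 genes (815 raised and 542 lowered). Raised genes numbered 540 with median-of-ratios scaling and 569 with quantile normalization, and lowered genes 464 with FPKM of at least 5. Leaving out each of the 12 libraries gave 728 to 1902 calls, 425 to 1217 raised and 303 to 728 lowered, lowest without MATZ 20 DAP replicate 2. The total also moved by over 1.5 times without MATZ 20 DAP replicate 1 (1060), and the raised count without that library (577), MATZ 8 DAP replicate 2 (635) and either BETL 20 DAP replicate (694 and 691). Of the raised genes 269, and of the lowered 245, were called without each of the 4 compared libraries in turn.

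The difference between the tissues' changes was called for 565 genes (315 higher and 250 lower), 260 without the mean trend (96 higher and 164 lower) and 1143 with a pseudocount of 0.1 (735 lower). Leaving out each library gave 227 to 1044, with 154 to 372 higher and 73 to 692 lower. The total moved by over 1.5 times without MATZ 8 DAP replicate 1 (1044) or 2 (987), MATZ 20 DAP replicate 1 (347) or 2 (227), BETL 8 DAP replicate 1 (241), and BETL 20 DAP replicate 1 (347) or 2 (354); the cause was not tested.

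Replicate differences, taken over all tested genes, correlated between -0.017 and 0.016 over 15 pairs of groups. A shared effect on few genes, or one small beside the spread, would not show in these values. Whether replicate numbers pair the samples is thus not settled. With the replicate block 899 genes were raised and 610 lowered, and 150 differences were lower in MATZ. The 94189 to 346737 fragments inferred for the compared libraries would limit low genes, and depth is not known otherwise.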

Other observations

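A pair of glycolytic genes outside the lists, picked after their values were seen, fell in the maternal zone. Gpc2 and GAPC, cytosolic glyceraldehyde phosphate dehydrogenases, were both called. Gpc2 had 1114 and 1039 FPKM (8 DAP), 356 and 272 (14 DAP), then 309.6 and 274 (20 DAP) (log2 change -1.88 ± 0.28 SE, adjusted p = 0.00412). GAPC had 553 and 483 FPKM (8 DAP), 556 and 455 (14 DAP), then 204 and 206 (20 DAP) (log2 change -1.33 ± 0.22 SE, adjusted p = 0.0078). RAB15, a small GTPase gene of membrane traffic by its name, was at 1747 and 2002 FPKM (8 DAP), 2128 and 2211 (14 DAP), then 1069.7 and 1079 (20 DAP), highest at 14 DAP.

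Endo1 had 82.5 and 97.4 FPKM (8 DAP), 34.6 and 22 (14 DAP), then 19.2 and 9.2 (20 DAP) and fell in MATZ (log2 change -2.66 ± 0.34 SE, adjusted p = 0.00199). ZmCL2-1 had 415 and 419 FPKM (8 DAP), 88 and 90.2 (14 DAP), then 62.1 and 90.5 (20 DAP). Thi1, a gene of thiamine synthesis, rose mostly after 14 DAP, with 20.7 and 18 FPKM (8 DAP), 36.8 and 33.2 (14 DAP), then 135 and 152 (20 DAP), and was not called after quantile normalization. The metallothionein-like gene mtl2 had 0 and 0 FPKM (8 DAP), 83 and 137 (14 DAP), then 39.8 and 22.6 (20 DAP) (log2 change 4.95 ± 0.51 SE, adjusted p = 0.000647), highest at 14 DAP like the zein genes. Of these, the thi1 call was lost when either MATZ 20 DAP replicate was left out, and the other calls held without each library in turn.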
